A study of Zea mays with 48 samples.

Results

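GLN4, a glutamine synthetase gene of maize, was followed through the probe V_gln4, which is 1 of 3585 probes on a 2-colour microarray. The probe was found by its ID. It was selected on its inbred and reciprocal differences in these same data, so those differences are given here as values with no test. The distance of the hybrids from the mean of their parents was not used in that choice and was tested. That mean is taken on the log scale, where the linear midpoint of unequal parents lies higher. The test is therefore not wholly free of the choice on the inbred difference. The reference table lists GLN4 (gene ID 542214) on chromosome 5 of the assembly Zm-B73-REFERENCE-NAM-5.0. The match was made by symbol. That table holds 6 glutamine synthetase entries, and the sources used here do not say which of them the probe also binds.

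Glutamine synthetase joins ammonium to glutamate with energy from ATP and so forms glutamine, the entry point of inorganic nitrogen into plant metabolism. Plants carry a plastid form and several cytosolic forms. The cytosolic forms in maize are known for supplying glutamine for transport to the ear, and mutants in some of them set fewer or smaller kernels. The embryo and the endosperm, the nutritive tissue of the kernel, both take up nitrogen from the mother plant as amino acids.

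The arrays compared embryos or endosperm, isolated 6 days after pollination, of reciprocal hybrids and their inbred parents. The groups were the hybrids 301x005 and 005x301 with their selfed parents 301x301 (line UH301) and 005x005 (UH005), and the hybrids 301x250 and 250x301 with 301x301 and 250x250 (UH250). The plants were grown in a glasshouse, all genotypes of a loop were selfed or crossed on 1 day, and a hybrid name is read, by convention, with the mother first. In each tissue cross 301/005 has 4 loops and cross 301/250 has 2, so that 12 loops of 4 arrays make up the 48 arrays. In a loop, each of both hybrids was hybridised against each of both inbreds. The sources used here do not say how many ears or kernels were pooled for an RNA.

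GLN4 had a value on 42 of the 48 arrays, on 22 of 24 from embryos and 20 of 24 from endosperm. The values are log2 ratios of hybrid over inbred RNA, so that 1 is a doubling and a negative value means less GLN4 RNA in the hybrid. Their direction is likely, not stated: if it were the other way, every sign below would turn. An array had values for 926 to 3430 probes, and its signal intensities were not used here, so that the number of arrays limits the precision. Replicate arrays of the same dye orientation correlated across probes at r 0.0712 to 0.584 (16 pairs), and those of opposite orientation at r -0.471 to 0.424 (40 pairs). Probes are not independent replicates. Of 4 endosperm markers found, MEG1, a peptide gene of the transfer cells, had values on 19 endosperm and 10 embryo arrays, FIE1, an imprinted Polycomb gene, on 20 and 13, and MRP1, a transfer cell regulator, on 21 and 11. NRP1 had values on 14 endosperm and 13 embryo arrays, so this marker hardly set the tissues apart. No array held both tissues, so levels of the tissues could not be compared. In bulk tissue, fewer cells of a type and less RNA per cell cannot be told apart.

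In embryos of cross 301/005, V_gln4 read lowest in inbred UH301 of the 4 genotypes. Both hybrids lay on average nearer to UH005 than to UH301. Loop 1 was an exception for 005x301, at 0.18 against UH301 and -0.31 against UH005. Against UH301, hybrid 301x005 stood at 0.68, 1.26 and 0.65 in loops 1, 2 and 3. Hybrid 005x301 stood at 0.18, 1.57, 0.44 and 0.61 against UH301 in loops 1 to 4. The hybrids were thus above UH301 on 7 of 7 arrays. Against UH005, 301x005 stood at -0.23, -0.30, 0.0056 and -0.25 in loops 1 to 4, and 005x301 at -0.31, -0.06 and -0.25 in loops 1, 2 and 3. On 6 of these 7 arrays the hybrid was below UH005, by 0.31 at most.

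**Figure D1:**
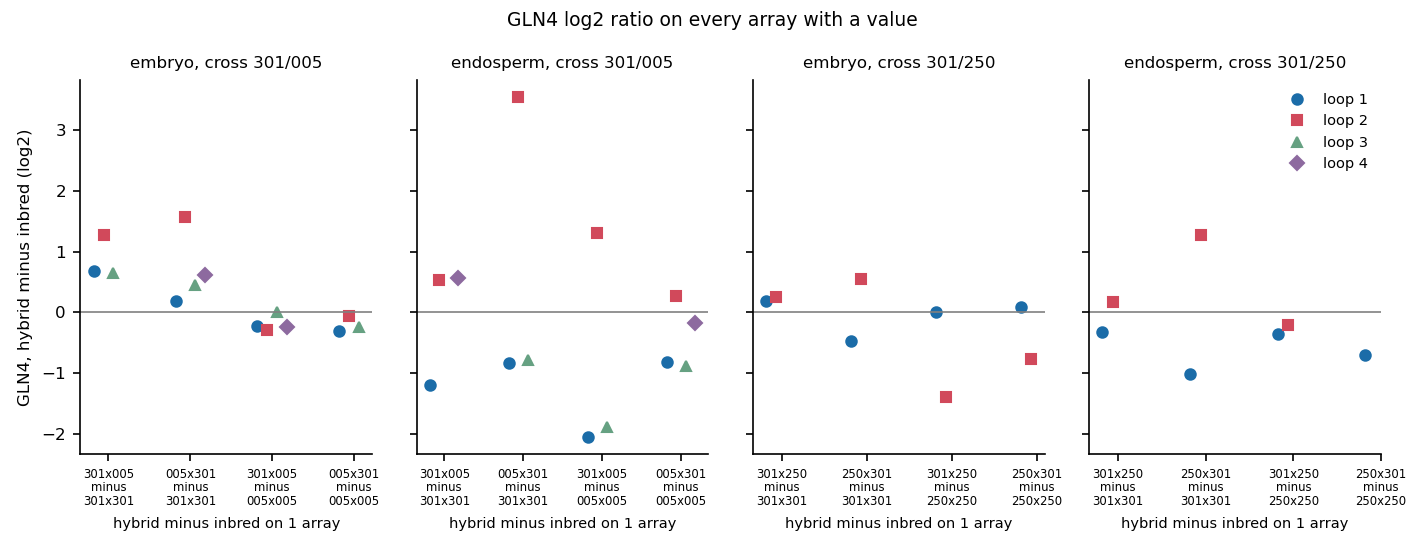
GLN4 log2 ratio of hybrid over inbred RNA (vertical axis) on each of the 42 arrays with a value, by tissue and cross, with each hybrid and inbred pair on the horizontal axis and the loop shown by the symbol (loops 1 and 3 held the hybrid in channel 2, loops 2 and 4 in channel 1). In embryos of cross 301/005 all 7 points against UH301 lie above 0, while the endosperm points of that cross run from -2.06 to 3.54.

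Taken within loops, UH301 minus UH005 was -0.70, -1.60 and -0.67 in the 3 embryo loops with all 4 arrays. The mean was -0.99 ± 0.53 (SD, n = 3 loops), which is 1.98-fold less GLN4 RNA in UH301 than in UH005. Each loop gives this difference through either hybrid, and all 6 such estimates were below 0, between -1.63 and -0.49. The size of the mean exceeded that of 95.1% of the 2387 probes with at least 2 such loops, whose median size was 0.23. These values chose the probe and support nothing further.

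Relative to the mean of the 4 RNAs of its loop, GLN4 in these embryos stood at 0.19 ± 0.02 in 301x005 and 0.11 ± 0.29 in 005x301. It stood at -0.65 ± 0.40 in 301x301 and 0.34 ± 0.13 in 005x005 (SD, n = 3 loops each). The 3 values of 301x301 lay between -1.11 and -0.39 and did not overlap with those of any other genotype. These levels contain the inbred difference that chose the probe, and the share of other probes without such overlap was not counted. From low to high, the order of the means was 301x301, 005x301, 301x005 and 005x005. The values of 005x301 spanned those of 301x005, so these neighbours did not differ beyond their spread. The lowest value of 005x005, 0.23, lay just above the highest of 301x005, 0.22, but below the highest of 005x301, 0.45.

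**Figure D2:**
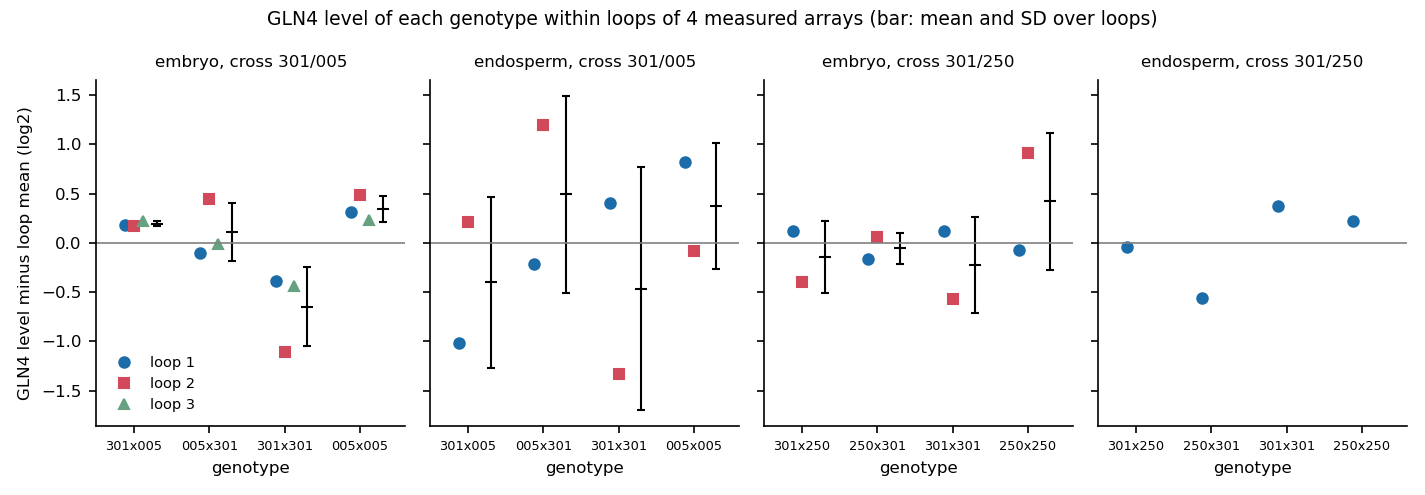
GLN4 level of each genotype (horizontal axis) in log2 units relative to the mean of the 4 RNAs of its loop (vertical axis), by tissue and cross, with points for loops with all 4 arrays and bars for the mean and SD over loops (endosperm of cross 301/250 has 1 such loop and no bar). In embryos of cross 301/005 the level of 301x301, part of the inbred difference that chose the probe, is below every other point, with a mean of -0.65. In endosperm of that cross the genotypes overlap.

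A loop of 4 arrays also shows its own error, because both estimates of a difference should be equal. In the 3 embryo loops of cross 301/005 they were 0.42, 0.07 and 0.05 apart. The gap was wider than that of 53.6% of 2283 probes in loop 1. It was wider than that of 7.5% of 2001 probes in loop 2 and 9.7% of 2888 probes in loop 3. The inbred difference chose the probe, so it was not tested against these gaps.

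In embryos of cross 301/250, the inbred difference varied between the loops. In loop 1 the hybrids stood near both parents: 301x250 was at 0.18 against UH301 and -0.0013 against UH250, and 250x301 was at -0.48 and 0.09. In loop 2, 301x250 was at 0.25 against UH301 and -1.39 against UH250, and 250x301 was at 0.54 and -0.77. UH301 minus UH250 was 0.19 in loop 1 and -1.48 in loop 2, with a mean of -0.64 ± 1.18 (SD, n = 2 loops). Of the 4 estimates, 3 were below 0. The spread between loops exceeded the mean, so that no order of UH301 and UH250 can be read from this probe in embryos.

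In endosperm of cross 301/005 the arrays ran far apart. In loop 1, 301x005 was at -1.20 against UH301 and -2.06 against UH005, and 005x301 was at -0.84 and -0.82. In loop 2, 301x005 was at 0.54 against UH301 and 1.30 against UH005, and 005x301 was at 3.54 and 0.27. Every array of loop 1 was thus below 0 and every array of loop 2 above it. Loop 3 lacked 301x005 against UH301. There 301x005 was at -1.89 against UH005, and 005x301 was at -0.78 against UH301 and -0.89 against UH005. Loop 4 had values for 301x005 against UH301, at 0.57, and for 005x301 against UH005, at -0.17. Because these arrays share no RNA, loop 4 gives no inbred or reciprocal difference. The 2 arrays hold each genotype once, so their mean is a mid-parent difference. The loop fits left out loops with 2 arrays.

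The sign of the endosperm values followed the dye on all but 2 arrays. As deposited, channel 1 over channel 2, GLN4 was above 0 on 18 of 20 endosperm arrays, against 10 of 22 embryo arrays. With hybrid RNA in channel 2 all 11 endosperm values were above 0, from 0.33 to 2.06 with a median of 0.84. With hybrid RNA in channel 1, 7 of 9 were above 0, from -0.21 to 3.54 with a median of 0.54. The part that did not turn with the RNAs, the mean of both orientations, was 0.90 in endosperm and 0.03 in embryos. In endosperm it exceeded that of 96.1% of 3445 probes, whose median size was 0.14, and in embryos that of 11.6% of 3316 probes. A constant channel part cancels in the inbred and reciprocal differences of a loop but not in the mid-parent difference. Its part in the endosperm results was not tested.

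**Figure D3:**
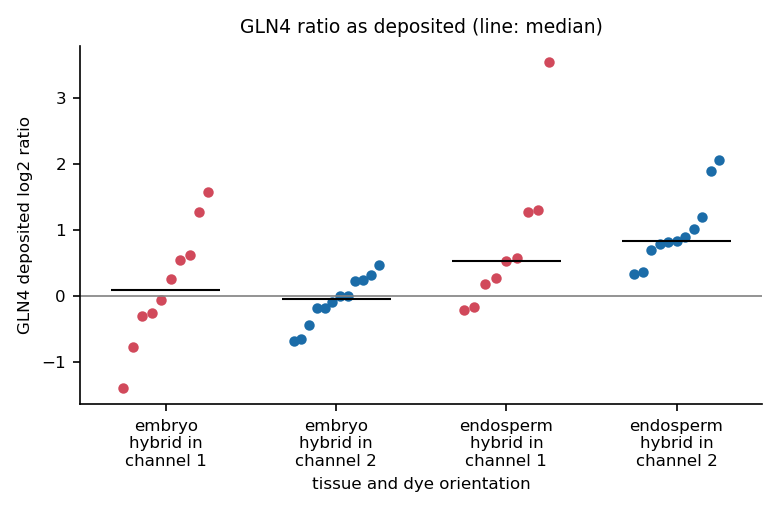
GLN4 log2 ratio as deposited, channel 1 over channel 2 (vertical axis), by tissue and by the channel that held the hybrid RNA (horizontal axis), with a point for each of the 42 arrays and a line at the median. Of the endosperm points 18 of 20 lie above 0, against 10 of 22 embryo points.

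Hybrid 301x005 minus hybrid 005x301 in endosperm was -0.80 and -0.99 in the 2 loops with all 4 arrays. The mean was -0.89 ± 0.13 (SD, n = 2 loops), which is 1.86-fold less GLN4 RNA in the hybrid seeded by UH301 than in the hybrid seeded by UH005. Loop 3, with 3 arrays, gave -1.002. The loop means lay close together, but the estimates within a loop did not. Through UH301 and through UH005 the difference was -0.36 and -1.24 in loop 1, and -3.01 and 1.03 in loop 2. The estimates of loop 2 thus had opposite signs, 4.04 apart, a gap wider than that of 98.1% of 2254 probes in that loop. The gap in loop 1 was 0.88, wider than that of 82.2% of 2585 probes. Of all 5 estimates 4 were below 0.

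The endosperm difference of UH301 minus UH005 rested on the same arrays. It was -0.42 and -1.25 in loops 1 and 2, with a mean of -0.84 ± 0.59 (SD, n = 2 loops), and -0.11 in loop 3 with 3 arrays. Through 301x005 and through 005x301 it was -0.86 and 0.02 in loop 1 and 0.77 and -3.28 in loop 2. The estimate of -3.28 contains the array at 3.54, and 3 of the 5 estimates were below 0.

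**Figure D4:**
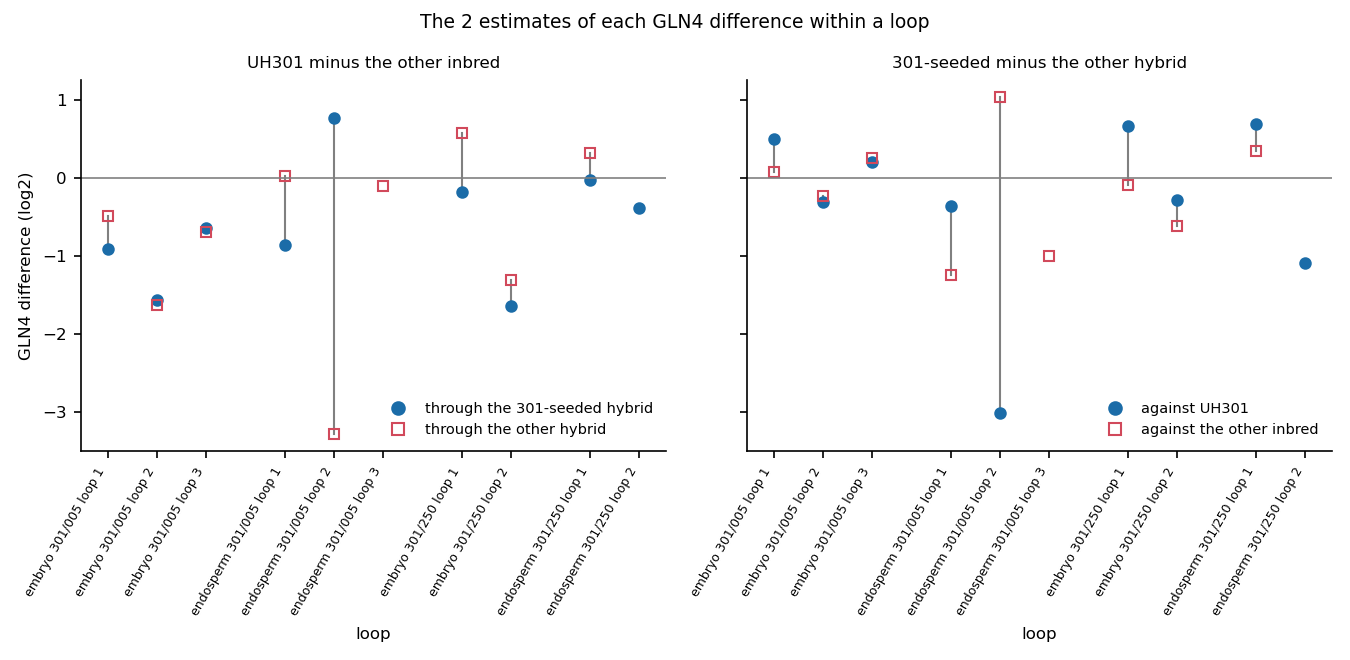
Both estimates of each GLN4 difference within a loop (vertical axis, log2), joined by a line, for each loop that gives one (horizontal axis): inbred UH301 minus the other inbred on the left and the 301-seeded minus the other hybrid on the right. The line is shortest in embryo loops 2 and 3 of cross 301/005, at 0.07 and 0.05, and longest in endosperm loop 2 of that cross, at 4.04.

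The reciprocal hybrids showed no common direction elsewhere. In embryos, 301x005 minus 005x301 was 0.29, -0.27 and 0.23, a mean of 0.08 ± 0.31 (SD, n = 3 loops), and 301x250 minus 250x301 was 0.28 and -0.45, a mean of -0.09 ± 0.52 (SD, n = 2 loops). In endosperm of cross 301/250, loop 1 had 301x250 at -0.33 against UH301 and -0.36 against UH250, and 250x301 at -1.02 and -0.70. Loop 2 had 301x250 at 0.18 against UH301 and -0.21 against UH250, and 250x301 at 1.27 against UH301. From these, 301x250 minus 250x301 was 0.51 in loop 1 and -1.09 in loop 2, which has 3 arrays. UH301 minus UH250 was 0.15 and -0.39 in the same loops. Both differences had opposite signs in the 2 loops.

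The mid-parent difference asks whether the hybrids together differ from the mean of their parents, the question that the series title raises by naming heterosis. GLN4 did not pass the test in any tissue and cross. In embryos of cross 301/005 the loops gave 0.08, 0.62 and 0.21, all above 0. Fitted with a dye coefficient common to all loops, the difference was 0.45 ± 0.37 (SE, n = 3 loops, limma adjusted p = 0.798). A common dye coefficient takes the channel part as equal in both tissues, whereas it was 0.90 in endosperm and 0.03 in embryos. Without a dye coefficient the embryo value was 0.30 ± 0.43 (SE, limma adjusted p = 0.958). With a coefficient per tissue, chosen after seeing the data, it was 0.33 ± 0.23 over loops of at least 3 arrays (SE, limma adjusted p = 0.720). The adjustment of the first value covered 1752 probes, of which 0 (0%) passed and 129 had an unadjusted p under 0.05. An exact two-sided sign-flip test over the 3 loops gave p = 0.25, the smallest that 3 loops allow. Loop 4, with 2 arrays, was left out of the fit and of this test. Its arrays, at -0.25 for 301x005 against UH005 and 0.61 for 005x301 against UH301, hold each genotype once.

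In endosperm of cross 301/005 the loops with all 4 arrays gave -1.23 with the hybrid in channel 2 and 1.41 with the hybrid in channel 1. The fit gave 0.09 ± 0.45 (SE, n = 2 loops, limma adjusted p = 0.951), with 0 of 2076 probes (0%) passing and 160 at an unadjusted p under 0.05. In embryos of cross 301/250 the loops gave -0.05 and -0.34, and the fit gave -0.20 ± 0.45 (SE, n = 2 loops, limma adjusted p = 0.968). There 0 of 1460 probes (0%) passed, and 94 had an unadjusted p under 0.05. Endosperm of cross 301/250 had 1 loop with all 4 arrays, at -0.60, too few for the test. Loop 2, with 3 arrays, gave 0.53, and with loops of at least 3 arrays the fit gave -0.036 ± 0.45 (SE, n = 2 loops, limma adjusted p = 0.9996, with 0 of 2579 probes passing). In the fits with a common dye coefficient, the standard errors are of the size of the differences or larger. These tests thus leave room for a change in either direction. For embryos of cross 301/005, the spread of its loops alone gave a smaller error, at 0.38 ± 0.12 (SE, n = 3 loops, 1 residual degree of freedom). That fit did not pass either (limma adjusted p = 0.273, with 0 of 1588 probes passing).

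The tissues and the crosses were also set against each other. Endosperm minus embryo of cross 301/005 gave a change in the mid-parent difference of -0.36 ± 0.58 (SE, limma adjusted p = 0.982). Embryos of cross 301/250 minus embryos of cross 301/005 gave -0.65 ± 0.58 (SE, limma adjusted p = 0.997). Neither passed, and 0 of 1697 and 0 of 1208 probes (0% each) did.

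A second probe on the array, V_gln4_Hinf_I-F, carries the same gene name, and was set beside the first on the same RNAs. It had values on 30 arrays, and on 29 of them V_gln4 had one too. Both probes had the same sign on 24 of these 29 arrays, 15 of 19 from embryos and 9 of 10 from endosperm. Across the 29 arrays, which share RNAs and dye orientation, Pearson's r was 0.463 and Spearman's rho 0.638. By tissue, r was 0.24 and rho 0.425 in embryos, and 0.599 and 0.806 in endosperm. The channel part of the second probe was 0.67 in endosperm, where that of V_gln4 was 0.90, and -0.28 in embryos. How far the channel part made the signs match was not tested. On the endosperm array where V_gln4 read 3.54 the second probe read -0.03.

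Within loops, the second probe too read lower in UH301 than in the other inbred, but in embryos of cross 301/005 most of its values put the hybrids below UH301. In embryos of that cross the hybrids were above UH301 on 1 of 4 arrays of this probe, where V_gln4 had them above on 7 of 7. In loop 2, 301x005 read -0.37 against UH301, and in loop 4, 005x301 read -1.43, where V_gln4 read 1.26 and 0.61. UH301 minus UH005 in embryos was -0.40 in loop 1, with 4 arrays, and -0.35 in loop 2, with 3 arrays. The gap between both estimates in loop 1 was 0.44, wider than the difference itself. The mid-parent differences of these loops were -0.09 and -0.23, where V_gln4 gave 0.08 and 0.62. UH301 minus UH250 was -0.32 and -1.12 in embryos, a mean of -0.72 ± 0.57 (SD, n = 2 loops). In endosperm it was -0.59 with 4 arrays and -0.67 with 3 arrays. All 10 estimates of the inbred difference from this probe were below 0, but estimates of the same loop share both inbred RNAs and are not independent. Its reciprocal difference had no common sign, with 0.05 and -0.68 in embryos of cross 301/250. In endosperm of cross 301/005 it had too few values to give either difference. Single values reached -3.14 in embryos and -3.75 in endosperm, both 301x005 against UH005, where V_gln4 read -0.25 and -1.89.

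**Figure D5:**
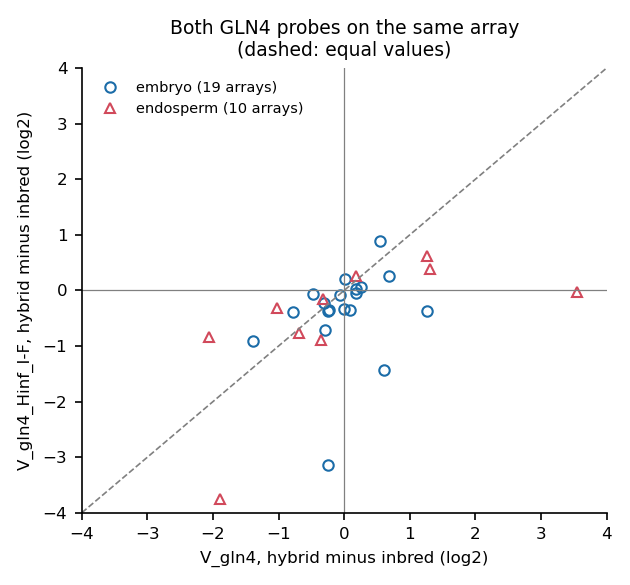
Second GLN4 probe (vertical axis) against V_gln4 (horizontal axis), both as log2 ratio of hybrid over inbred RNA, with a point for each of the 29 arrays that have both, the tissue shown by symbol and a dashed line where both are equal. The signs are the same for 24 points, and the point farthest to the right, at 3.54, reads -0.03 on the second probe.

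Of 24 symbols of nitrogen assimilation genes, 5 probes were matched: both GLN4 probes and V_got1, V_got2 and V_got3, whose names the reference table does not hold. The 3 got probes passed 0 of 33 limma tests of the mid-parent, reciprocal and inbred differences, 5 of them at an unadjusted p under 0.05. Their median was -0.034 for the mid-parent, 0.040 for the reciprocal and 0.014 for the inbred difference, over 11 tests each. The shares of all probes that passed were 0% for the mid-parent difference in each tissue and cross. For the reciprocal difference they were 0% and 0.249% for embryos, then 1.57% and 0% for endosperm, with cross 301/005 first. For the inbred difference they were 0.899% and 0% for embryos, then 6.42% and 0% for endosperm, in the same order. V_got1 in embryos of cross 301/005 had UH301 above UH005, opposite in sign to GLN4, at 0.72 ± 0.23 (SE, n = 4 loops, limma adjusted p = 0.222). There V_got3 stood at 0.41 ± 0.25 (SE, n = 2 loops, limma adjusted p = 0.553), and V_got2 had the sign of GLN4, at -0.23 ± 0.17 (SE, n = 3 loops, limma adjusted p = 0.613). V_got3 had a mid-parent difference of -0.80 ± 0.13 in the same embryos (SE, n = 2 loops, limma adjusted p = 0.454). The gaps within these loops, 1.70 and 1.97, were wider than those of 95.4% of 2283 and 93.4% of 2001 probes. In loop 3, left out with 2 arrays, 301x005 and 005x301 stood at 0.46 and 0.18 against UH005, where the loops used read below 0.

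The probes whose ratios most resembled those of GLN4 over its 42 arrays, among 2098 with enough values, were S_CC790 at r 0.714, S_CC60 at 0.711, S_CC894 at 0.657, and S_CC888 and S_CC915 at 0.621 each. The files pair none of these with a gene. Among the 10 probes with a gene name that the reference table holds, S_hsp101 (a heat shock protein) stood highest at r 0.507. It came before gapdh (a glycolytic enzyme) at 0.274 and S_PR5 at 0.236. The got probes, whose names that table lacks, were not ranked among them. S_MET1 (a DNA methyltransferase) stood lowest at -0.301, with S_DMT106 at -0.257 and S_PR6 at -0.23. These arrays share RNAs and dye orientation, and the array at 3.54 weighed on the order. Without it, r was 0.567 for S_CC790, 0.593 for S_CC60, 0.367 for S_hsp101 and -0.102 for gapdh, and 2 of the 5 probes stayed among the 5 most alike. With the channel part removed per tissue 2 of the 5 stayed, S_hsp101 was at 0.327, and S_PR6 at -0.192 was below S_MET1 at -0.101 and S_DMT106 at -0.0522. By Spearman's rho 0 of the 5 stayed and S_hsp101 was at 0.262, so the list depends on the measure.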

How the data were processed

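The authors deposited a log ratio of Cy3 and Cy5 signals for each probe on each array, taken here as log2. The sources used here do not give the log base, background correction or normalization. Per the labels' protocols, mRNA was amplified as cDNA before labelling, which can shift ratios. Array medians lay between -0.201 and 0.114, so no centring was applied, and 7 control entries of 3592 were left out. The direction was taken as channel 1 over channel 2, the order of the RNAs in the titles. Under this direction, other probes whose inbreds differed by over 1 lay above the mid-parent, where linear midpoints fall on a log scale, for 79 of 113 and 198 of 238 probes in embryo and endosperm of cross 301/005, and 23 of 35 and 30 of 40 of cross 301/250. The shares of all probes were 49.1%, 48.9%, 44.3% and 47.1%.

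Odd replicates, with inbred RNA in channel 1, were turned in sign. The loop, which the labels describe as a biological replicate, was the unit: its 4 arrays share RNAs and a pollination day, so the labels themselves pair them. The mean correlation of array deviations within a loop was 0.134 to 0.348. The arrays of a loop also share the dye orientation, so in these correlations shared RNA and dye cannot be told apart. Whether loops came from separate plants is not stated, so p-values measure only the spread between these loops. The mid-parent difference was fitted over all probes and 12 loops with the moderated variances of limma 3.58.1 (R 4.3.3), 1 coefficient per cross and tissue and a common dye coefficient. A loop entered only with all 4 arrays; at least 2 loops of both orientations and 3 residual degrees of freedom were required. P-values are two-sided, with Benjamini-Hochberg adjustment over every probe tested and a threshold of 0.05. The fit was tested on simulated data that held no dye effect and the same spread in both tissues. That test therefore does not cover a channel part that differs between tissues. Likeness was Pearson's r among probes with values on at least 80% of the GLN4 arrays. The 5 highest were named, and the 3 highest and 3 lowest with gene names that the reference table holds. The probe and the gene lists were chosen with earlier results of these data known. Probe sequences were not used here.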

Additional observations from a re-analysis of the deposited data

Results flagged for a closer look

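The GLN4 mid-parent difference was below 0 in both embryo loops of cross 301/250 and above 0 in all 3 embryo loops of cross 301/005. The means over loops differed by -0.50 (301/250 minus 301/005). The limma test of this difference, fitted with the dye coefficient, gave -0.65 ± 0.58 (SE, adjusted p = 0.997).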

How the results depend on the processing

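The alternatives were loops with at least 3 arrays, centred or scaled arrays, other filters, no dye coefficient, fits on single arrays, the spread of a group alone and leaving out each loop. Those with a dye coefficient per tissue, the estimates taken singly and 2 of the likeness settings were chosen after seeing the data. Beside leaving out loops, 59 of 69 values held. These kept their direction, tested ones their side of the threshold, and untested ones moved by less than the spread between loops. Part of these estimates were fixed by design: filtering probes changes none, nor does a dye coefficient where orientations balance. GLN4 passed in none of the 37 alternatives with an adjusted p, which ran from 0.273 to 1. For endosperm of cross 301/005 the mid-parent difference turned to -0.20 with loops of at least 3 arrays, to -0.047 with a dye coefficient per tissue added, and to -0.14 with single arrays. With the loop as a replicate block on single arrays it was -0.16, and the block changed no GLN4 call. Over all probes the single-array fits called 20, 35, 9 and 7 probes without the block and 2, 10, 3 and 3 with it, against 0 in the loop fit (embryo and endosperm of 301/005, then of 301/250). Without a dye coefficient the mid-parent differences were 0.30 and, by design unchanged, 0.09 and -0.20 (embryo and endosperm of 301/005, embryo of 301/250). Those between tissues and between crosses were -0.21 and -0.50. In endosperm of 301/250, the mid-parent value was -0.60 in the complete loop, -0.036 with loops of at least 3 arrays and -0.11 with single arrays. There, loops of at least 3 arrays gave -0.29 for the reciprocal and -0.12 for the inbred difference. Centring gave 0.51 and 0.17 there, and scaling 0.84 and 0.43. Leaving out 1 loop at a time gave mid-parent differences of 0.35 to 0.73 (embryo 301/005), -1.16 to 1.34 (endosperm 301/005) and -1.05 to 0.65 (embryo 301/250). It gave -1.48 to 1.01 for endosperm minus embryo of 301/005, and -1.58 to 0.11 for embryos of 301/250 minus 301/005. The reciprocal difference ran from -0.0205 to 0.26 (embryo 301/005), -0.45 to 0.28 (embryo 301/250) and -0.99 to -0.80 (endosperm 301/005). The inbred difference ran from -1.15 to -0.68 (embryo 301/005), -1.48 to 0.19 (embryo 301/250) and -1.25 to -0.42 (endosperm 301/005). A group left with 1 loop has a value and no test. The cause of these changes was not tested. With complete loops, a dye coefficient per tissue left too few degrees of freedom for a test, and the spread of a group alone could be fitted only for embryos of 301/005. Turning the direction of the ratio turns every sign. The number of loops limits the precision; the signal over background is unknown.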
